A study of Homo sapiens with 6 samples.

Results

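The de novo purine synthesis pathway builds inosine monophosphate (IMP) from phosphoribosyl pyrophosphate (PRPP) and converts it to guanosine monophosphate (GMP). The expression of 10 genes that encode its enzymes was described in siSHMT2 vs. siNC HT-1376 cells. The genes were chosen by name, as PRPS1, PPAT, GART, PFAS, PAICS, ADSL, ATIC, IMPDH1, IMPDH2 and GMPS, and 10 of the 63241 genes listed in the count table matched, by the Ensembl identifiers of GENCODE release 44. HT-1376 is a long-established line of human bladder carcinoma. Cells of the siSHMT2 group were transfected with a single siRNA against SHMT2, the mitochondrial serine hydroxymethyltransferase, and those of the siNC group with a non-targeting siRNA, and all were collected after 24 h. The labels give the genotype as WT for siNC and as SHMT2 knockdown for siSHMT2. Each group had 3 libraries, prepared from bead-captured mRNA by a kit that keeps strand, so the results describe 1 siRNA in 1 cell line, and p-values measure the spread between these libraries, for which the labels do not name the source culture.

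Purine synthesis assembles the purine ring step by step on ribose phosphate. A pair of its steps take a formyl group from 10-formyl-tetrahydrofolate (10-formyl-THF), and the enzymes of these steps are GART and ATIC. SHMT2 converts serine to glycine in mitochondria, hands the released carbon to tetrahydrofolate, and is known as a supplier of folate-bound carbon units and glycine for purine synthesis in proliferating cells. Cells can also recover free purine bases and nucleosides by salvage.

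The counts assigned to genes summed to between 533689 and 890574 per library, and the 10 genes together held 228 to 389 of them. Genes were tested with edgeR's quasi-likelihood test where its filter on low counts kept them, which left 7207 genes, and the median count of a tested gene was 25. On principal components of the tested genes, siSHMT2 replicate 1 stood apart on the first component, with a score of 33.7 against -12.5 to -1.02 in the other 5 libraries, and siNC replicate 2 on the second, with a score of -28.3. These libraries had the lowest totals, 533689 and 660559 counts, against 815061 to 890574 in the others. Whether depth set their scores was not tested. The epithelial keratins KRT8 and KRT18 were at 1056 ± 64.0 and 603 ± 26.1 FPKM in siNC (SD, n = 3), 8 of 9 epithelial markers passed the filter, and UPK2, a urothelial differentiation marker, had 1 count in all libraries together. GATA3, a urothelial transcription factor named here after its values were seen, was at 16.3 ± 2.32 FPKM in siNC and 24.01 ± 3.88 in siSHMT2 (SD, n = 3) with groups apart. Its log2 fold change was 0.54 (edgeR, unadjusted p = 0.023 and BH-adjusted p = 1.00), and its part in the purine gene values was not tested. Of all genes tested, 3.84% had an unadjusted p under 0.05 by edgeR, and 4.69% of those with a listed length had FPKM groups apart in this direction. Among the 8 epithelial markers tested, only GATA3 had an unadjusted p under 0.05, and their median log2 fold change was -0.03. Of 8 markers of blood, connective tissue, endothelial and muscle cells, PTPRC, CD3E, VWF and DES had 0 counts and the others 2 to 14.

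The strand setting with which the reads were counted is not given in the sources used here. When lncRNA genes were paired with coding genes whose exons they face on the other strand (100 or more shared bases, 20 or more counts each), the lncRNA had the higher count in 588 of 976 pairs (60.2%). Whether the counts of the 10 genes come from their own strand, and whether their low numbers follow from the strand setting, was not tested. Every level below rests on these counts.

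Promoter windows of the 10 genes were read from RefSeq on GRCh38.p14, from 250 bases before to 50 bases after a transcription start, for 8 genes. The 3 windows shown are those of the genes that use 10-formyl-THF, ATIC and GART, and that of PPAT, which lies back to back with PAICS on chromosome 4. Capitals mark each CACGTG (an E-box, read alike on either strand) and each CCAAT or its reverse complement ATTGG.
PPAT, chr4:56435566-56435865, minus strand: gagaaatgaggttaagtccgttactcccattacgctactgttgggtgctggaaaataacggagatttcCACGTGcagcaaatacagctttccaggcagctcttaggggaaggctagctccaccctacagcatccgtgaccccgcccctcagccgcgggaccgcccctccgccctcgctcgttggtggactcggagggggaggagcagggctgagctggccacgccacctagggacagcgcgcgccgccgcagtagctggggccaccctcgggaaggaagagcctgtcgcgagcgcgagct
ATIC, chr2:215311809-215312108, plus strand: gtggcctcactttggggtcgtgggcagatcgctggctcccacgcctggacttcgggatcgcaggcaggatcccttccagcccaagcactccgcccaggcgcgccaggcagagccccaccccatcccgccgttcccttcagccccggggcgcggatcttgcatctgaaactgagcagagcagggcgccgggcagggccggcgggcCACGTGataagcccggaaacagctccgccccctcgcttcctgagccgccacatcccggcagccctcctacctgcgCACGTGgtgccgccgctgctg
GART, chr21:33542840-33543139, minus strand: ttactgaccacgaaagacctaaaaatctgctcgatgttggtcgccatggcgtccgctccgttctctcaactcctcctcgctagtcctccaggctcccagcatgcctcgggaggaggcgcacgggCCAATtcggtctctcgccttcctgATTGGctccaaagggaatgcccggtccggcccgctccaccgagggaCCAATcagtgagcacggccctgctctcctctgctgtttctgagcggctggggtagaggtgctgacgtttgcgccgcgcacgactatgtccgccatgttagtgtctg

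The letters CACGTG were found in windows of 3 of the 8 genes, ATIC, PAICS and PPAT, and in 8.77% of all 27305 genes with a window. In ATIC the E-box letters begin at positions -46 and 30, counted from 1 at the first transcribed base and with no position 0. The gene starts of PPAT and PAICS are 125 bases apart on opposite strands. The PAICS window that begins at 56435502 shares 236 bases with the PPAT window. The E-box at position -182 of PPAT is the same site as the one at position 41 of that PAICS window. PAICS has other windows, beginning at 56410257 and 56436010, without an E-box, and which start is used was not tested. CCAAT or ATTGG was found for 2 of the 8 genes, GART and PRPS1, and in 39.7% of all genes, and the GART window shown holds 3 of them. GART has other windows, beginning at 33542068 and 33542843, which hold 1 and 3. A match is a description of the letters and not of binding.

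The targeted gene was lower in the siSHMT2 libraries. SHMT2 (ENSG00000182199, chromosome 12, 57229573 to 57234935, plus strand) had 10.0, 6.65 and 6.57 FPKM in siNC replicates 1 to 3 and 4.94, 0.715 and 1.80 FPKM in siSHMT2 replicates 1 to 3, where FPKM is the count scaled by gene length and by the total count of the library. Per library SHMT2 had 28, 15 and 20 counts in siNC against 9, 2 and 5 in siSHMT2, so the size of the difference rests on few counts. The FPKM values of the groups did not overlap, and the exact two-sided permutation test gave p = 0.1, the lowest value possible with 3 libraries per group. SHMT2 had a fitted log2 fold change of -1.78 with a standard error of 0.50, at rank 4 of the 7207 genes by unadjusted p (5.6e-04), and the Benjamini-Hochberg (BH) adjusted p by edgeR was 0.93.

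No purine synthesis gene passed the test of a difference in siSHMT2 vs. siNC. Counts were high enough for the filter in 6 of the 10 (PPAT, GART, PAICS, ATIC, IMPDH2 and GMPS) and too low in 4 (PRPS1, PFAS, ADSL and IMPDH1). Among the 6, 0 had an adjusted p under 0.05 with a fold change over 1.5, as did 0% of all genes tested, and 0 had an unadjusted p under 0.05, against 3.84% of all genes tested, with edgeR, and likewise 0 at either p with DESeq2 and with limma. All 6 adjusted p-values were 1.00 (edgeR with BH adjustment). The fitted log2 fold change was over 0 for 5 of the 6, PPAT, PAICS, ATIC, IMPDH2 and GMPS, and under 0 for GART, and it was over 0 for 49.8% of all genes tested. Of these 6, GART alone was fitted below 0 also without siSHMT2 replicate 1 and without siNC replicate 2. However, GART was fitted above 0 without siNC replicate 1 (0.01) and without siSHMT2 replicate 3 (0.14). In the fit without siSHMT2 replicate 3, GMPS was below 0 (-0.08). The median of the 6 was 0.28, and that of all genes tested was -0.001. For the 4 genes that the filter left out, fold changes come from the same fit without the filter, over 20836 genes. In these bulk libraries, fewer cells that express a gene and less RNA per cell cannot be told apart.

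**Figure D1:**
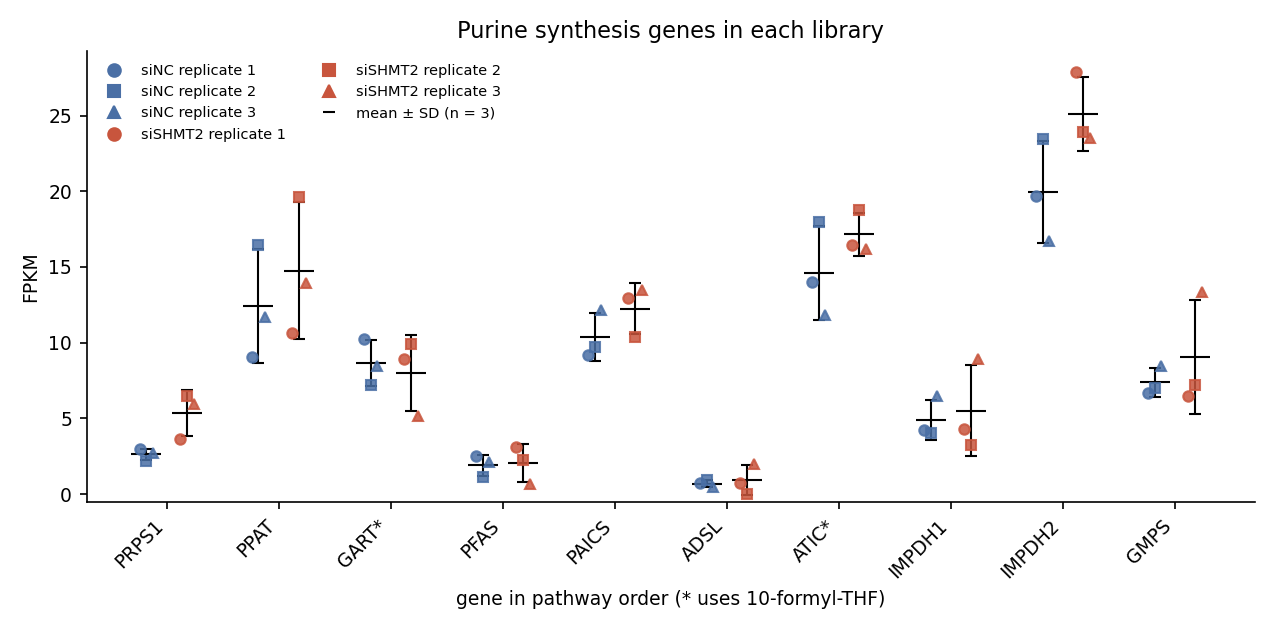
FPKM values of the 10 genes in pathway order, with 1 point per library, blue for siNC and red for siSHMT2, marker shapes for the replicate number, and black bars for the mean ± SD of 3 libraries. GART and ATIC (asterisks) use 10-formyl-THF, IMPDH2 has the highest mean, and the groups are apart for PRPS1 and, narrowly, for IMPDH2.

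PRPS1 (ENSG00000147224, chromosome X, 107628428 to 107651993, plus strand) makes PRPP, the starting substrate, from ribose 5-phosphate and ATP. Its level was 2.95, 2.19 and 2.71 FPKM in siNC replicates 1 to 3 and 3.62, 6.49 and 5.93 FPKM in siSHMT2 replicates 1 to 3. All siSHMT2 libraries were above all siNC libraries, with means of 2.62 ± 0.388 in siNC and 5.35 ± 1.52 in siSHMT2 (SD, n = 3), and the exact two-sided permutation test gave p = 0.1. Of the 20807 genes with any count and a listed length, 3.67% had groups apart in this direction, as did 4.69% of the genes tested with a listed length. The first share includes genes with too few counts for their groups to be apart. Per library PRPS1 had 5, 3 and 5 counts in siNC against 4, 11 and 10 in siSHMT2, so the difference rests on few counts. The log2 fold change was 1.04 (standard error 0.62), the 95% interval of the fold ran from 0.885 to 4.78, and the BH-adjusted p was 0.84 by edgeR without the filter.

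PPAT (ENSG00000128059, chromosome 4, 56393362 to 56435615, minus strand) carries out the committed step, the transfer of a glutamine amide nitrogen to PRPP. Its level was 9.07, 16.5 and 11.7 FPKM in siNC replicates 1 to 3 and 10.7, 19.6 and 13.96 FPKM in siSHMT2 replicates 1 to 3. The groups overlapped, and replicate 2 was the highest library of each group. The means were 12.4 ± 3.76 and 14.8 ± 4.54 FPKM (SD, n = 3), the fitted log2 change was 0.30 (standard error 0.26), and the 95% interval of the fold ran from 0.855 to 1.78. Without siSHMT2 replicate 2 the log2 fold change was 0.01, and without siNC replicate 2 it was 0.58.

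GART (ENSG00000159131, chromosome 21, 33503931 to 33543491, minus strand) joins several activities in 1 protein, among them the formyl transfer from 10-formyl-THF to glycinamide ribonucleotide. Its level was 10.3, 7.21 and 8.49 FPKM in siNC replicates 1 to 3 and 8.92, 9.92 and 5.15 FPKM in siSHMT2 replicates 1 to 3. The groups overlapped, and the lowest of the 6 libraries was siSHMT2 replicate 3. The means were 8.66 ± 1.54 and 7.997 ± 2.51 FPKM (SD, n = 3), and the log2 fold change was -0.13 (standard error 0.33) with a fold between 0.581 and 1.45 at 95%. The sign of this difference rested on single libraries, since the log2 fold change was 0.14 without siSHMT2 replicate 3 and 0.01 without siNC replicate 1.

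PFAS (ENSG00000178921, chromosome 17, 8247618 to 8270491, plus strand) adds a further glutamine nitrogen, and was listed at 2.51, 1.13 and 2.09 FPKM in siNC replicates 1 to 3 and 3.14, 2.27 and 0.686 FPKM in siSHMT2 replicates 1 to 3. The groups overlapped, with the highest and the lowest library both in siSHMT2. PFAS had 47 counts in total, and the 95% interval of its fold ran from 0.480 to 2.07.

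PAICS (ENSG00000128050, chromosome 4, 56435741 to 56464578, plus strand) encodes a carboxylase and a synthetase in 1 protein, which add carbon dioxide and aspartate to the growing ring. Its level was 9.21, 9.74 and 12.2 FPKM in siNC replicates 1 to 3 and 12.9, 10.4 and 13.5 FPKM in siSHMT2 replicates 1 to 3. The groups overlapped through siNC replicate 3 and siSHMT2 replicate 2. The means were 10.4 ± 1.57 and 12.3 ± 1.67 FPKM (SD, n = 3), and the log2 fold change was 0.23 (standard error 0.21) with a fold between 0.873 and 1.58 at 95%. It was lowest, 0.14, without siNC replicate 1.

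ADSL (ENSG00000239900, chromosome 22, 40346461 to 40390463, plus strand) releases fumarate at a late step of the pathway and again on the way from IMP to AMP. It was the gene with the fewest counts, 3, 3 and 2 in siNC replicates 1 to 3 and 2, 0 and 8 in siSHMT2 replicates 1 to 3. The 0 counts in siSHMT2 replicate 2 allow up to 3 counts, or 0.738 FPKM in that library, by counting error alone. A difference in ADSL was not detectable at this depth, with a fold between 0.374 and 4.64 at 95%.

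ATIC (ENSG00000138363, chromosome 2, 215311956 to 215349773, plus strand) performs the final formyl transfer from 10-formyl-THF and closes the ring to IMP. Its level was 13.98, 17.97 and 11.8 FPKM in siNC replicates 1 to 3 and 16.5, 18.8 and 16.2 FPKM in siSHMT2 replicates 1 to 3. The groups overlapped through siNC replicate 2. The means were 14.6 ± 3.11 and 17.1 ± 1.43 FPKM (SD, n = 3), the fitted log2 change was 0.26 (standard error 0.29), and the 95% interval of the fold ran from 0.794 to 1.80. Without siNC replicate 3 the log2 fold change was 0.10, and without siNC replicate 2 it was 0.46. Of the pair of genes that use 10-formyl-THF, ATIC was thus fitted above 0 and GART below 0, and each interval held no change. Together GART and ATIC made up 27.9% ± 2.74 of the summed FPKM of the 10 genes in siNC and 25.2% ± 3.97 in siSHMT2 (SD, n = 3), with ranges of 25.1% to 30.6% and 20.7% to 28.2% that overlapped.

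IMPDH1 and IMPDH2 encode isoenzymes that oxidize IMP to xanthosine monophosphate, the rate-limiting step of GMP synthesis. IMPDH2 (ENSG00000178035, chromosome 3, 49024325 to 49029447, minus strand) had 19.7, 23.45 and 16.7 FPKM in siNC replicates 1 to 3 and 27.9, 23.9 and 23.51 FPKM in siSHMT2 replicates 1 to 3. The lowest siSHMT2 library lay just above the highest siNC library, and the exact two-sided permutation test gave p = 0.1. Among the genes tested with a listed length, 4.69% had FPKM groups apart in this direction. In CPM values (counts relative to library totals adjusted by TMM) the groups overlapped, with 126.0 in siNC replicate 2 and 117.8 in siSHMT2 replicate 3. The means were 19.95 ± 3.38 and 25.1 ± 2.42 FPKM (SD, n = 3), and the log2 fold change was 0.33 (standard error 0.18) with a 95% interval of -0.04 to 0.70. IMPDH2 had the smallest unadjusted p of the 6 genes, 0.076, at rank 440 of 7207 by edgeR. Without siNC replicate 2 this unadjusted p was 0.018, with an adjusted p of 1.00 (edgeR with BH adjustment), and without siNC replicate 3 the log2 fold change was 0.19 with an unadjusted p of 0.36 by edgeR.

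IMPDH1 (ENSG00000106348, chromosome 7, 128392277 to 128409986, minus strand) had 4.22, 4.06 and 6.45 FPKM in siNC replicates 1 to 3 and 4.31, 3.27 and 8.93 FPKM in siSHMT2 replicates 1 to 3. Replicate 3 was the highest library of each group, and the groups overlapped. The fold lay between 0.590 and 2.15 at 95%. The ratio of IMPDH2 to IMPDH1 in FPKM was 4.67, 5.78 and 2.59 in siNC and 6.48, 7.30 and 2.63 in siSHMT2. The mean log2 ratio was 0.28 higher in siSHMT2 (exact two-sided permutation test, p = 0.5, adjusted p over 2 ratios = 1), and no difference in the balance was detectable. By these counts IMPDH2 was above IMPDH1 per listed length in all 6 libraries. The ratio rests on an IMPDH1 level that is uncertain because of its pseudogene IMPDH1P10, described below.

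GMPS (ENSG00000163655, chromosome 3, 155870650 to 155944020, plus strand) aminates xanthosine monophosphate to GMP with glutamine nitrogen. Its level was 6.66, 7.02 and 8.46 FPKM in siNC replicates 1 to 3 and 6.51, 7.22 and 13.4 FPKM in siSHMT2 replicates 1 to 3. A single library, siSHMT2 replicate 3, was high, and the other 5 overlapped. The means were 7.38 ± 0.951 and 9.03 ± 3.77 FPKM (SD, n = 3), and the log2 fold change was 0.32 (standard error 0.23) with a fold between 0.900 and 1.72 at 95%. It was -0.08 without siSHMT2 replicate 3, and 0.48 without siSHMT2 replicate 1, where the unadjusted p was 0.048 and the adjusted p 1.00 (edgeR with BH adjustment).

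**Figure D2:**
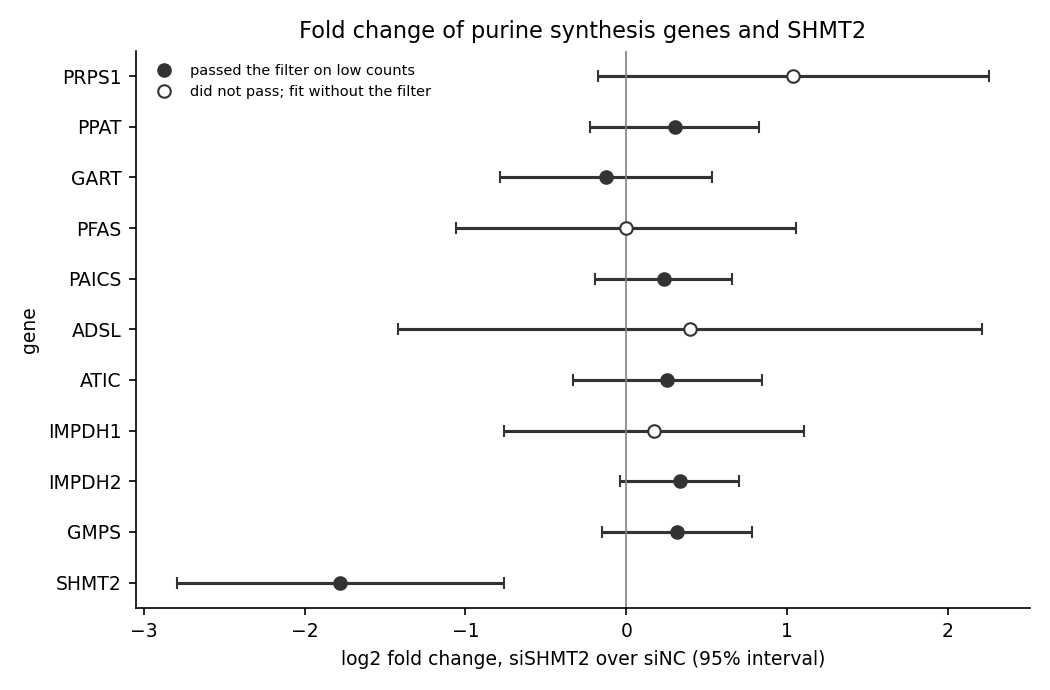
Log2 fold change of each gene in siSHMT2 vs. siNC with its 95% interval, filled circles for genes that passed the filter on low counts and open circles for those fitted without it. The intervals of all 10 purine synthesis genes include 0, and that of SHMT2, at -1.78, does not.

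**Figure D3:**
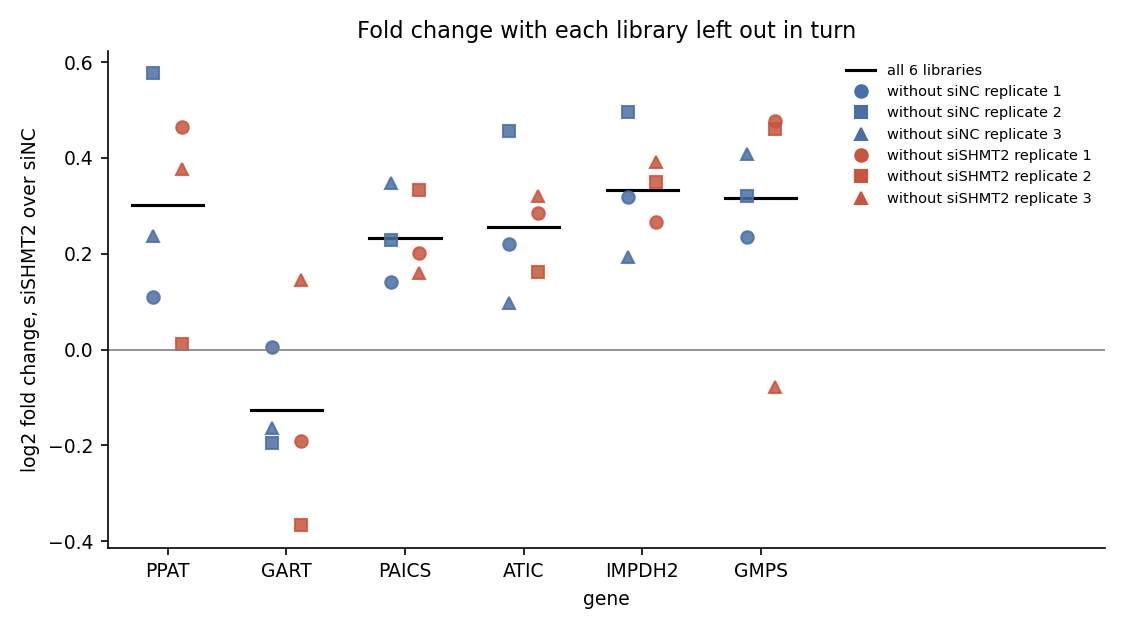
Log2 fold change (siSHMT2 over siNC) of the 6 tested genes with all 6 libraries (black lines) and with each library left out (points, coloured by the group of the library left out). GART ranges from -0.37 to 0.14 and GMPS from -0.08 to 0.48, while PPAT, PAICS, ATIC and IMPDH2 stay above 0.

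PPAT and PAICS, which have overlapping promoter windows as described above, were compared as a pair. The ratio of PAICS to PPAT in FPKM was 1.02, 0.591 and 1.04 in siNC replicates 1 to 3 and 1.21, 0.527 and 0.966 in siSHMT2 replicates 1 to 3. Replicate 2 had the lowest ratio of each group. The mean log2 ratio differed by -0.006 between the groups (exact two-sided permutation test, p = 1, adjusted p over 2 ratios = 1).

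By mean FPKM over the 6 libraries, the order of levels was IMPDH2 (22.5 ± 3.85), ATIC (15.9 ± 2.57), PPAT (13.6 ± 3.94), PAICS (11.3 ± 1.78), GART (8.33 ± 1.898), GMPS (8.20 ± 2.62), IMPDH1 (5.21 ± 2.11), PRPS1 (3.98 ± 1.79), PFAS (1.97 ± 0.908) and ADSL (0.806 ± 0.658), each with the SD over 6 libraries. The ranges of each pair of neighbours in this order overlapped. IMPDH2, the highest, was at percentile 72.8 of the genes tested. ADSL is not among these, since the filter left it out for low counts, and its level would be at percentile 0.347 of them. The listed length of IMPDH2 is 4906 bases, whereas its canonical transcript in GENCODE has 1651 bases, and with that length its level was 59.3 ± 10.0 FPKM in siNC and 74.6 ± 7.19 in siSHMT2 (SD, n = 3). The order of the 10 genes was the same with canonical lengths, but the ranges of IMPDH2 (49.6 to 82.8 FPKM) and ATIC (13.7 to 21.7 FPKM) then lay apart. This scaling kept all counts of each gene, also any outside the canonical transcript, so levels with canonical lengths can be too high. Whether the ranges would lie apart with counts of canonical exons alone was not tested.

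The FPKM values of the 10 genes summed to 79.3, 90.2 and 81.0 in siNC replicates 1 to 3 and to 95.2, 101.8 and 103.2 in siSHMT2 replicates 1 to 3. The groups did not overlap in this sum, and the siSHMT2 mean was 119.8% of the siNC mean. In summed CPM the groups were apart only narrowly, with 434.3 in siNC replicate 2 and 442.7 in siSHMT2 replicate 1. How often sums over other sets of genes lie apart was not tested. IMPDH1 and IMPDH2 together made up 29.7% ± 1.03 of the summed FPKM in siNC and 30.6% ± 3.63 in siSHMT2 (SD, n = 3). The sum is a description without a test, because its genes were chosen with earlier results of these data known.

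The neighbouring pathways were described by the same counts. Of the PRPP and AMP branch genes, 2 of 5 passed the filter, with PRPS2, an isoenzyme of PRPS1, at a fitted log2 change of -0.25 (standard error 0.47) and ADSS2, which starts the AMP branch, at 0.37 (standard error 0.42). Of 14 genes of purine salvage, interconversion and breakdown, 7 passed, 4 fitted above 0 and 3 below, between -0.57 for GUK1, the guanylate kinase, and 0.61 for PNP, the purine nucleoside phosphorylase, with a median of 0.01. Of 8 genes of the folate carbon supply around 10-formyl-THF, among them the serine hydroxymethyltransferases SHMT1 and SHMT2, which do not make it themselves, 4 passed, between SHMT2 itself and MTHFD1, the cytosolic enzyme that makes 10-formyl-THF, at 0.13 (standard error 0.18). Of 5 genes of de novo pyrimidine synthesis, 3 passed, between -0.04 for CTPS1 and 0.21 for CAD, with a median of -0.02. No gene of these lists had an adjusted p under 0.05 by edgeR, SHMT2 was the only gene among those tested in these 4 lists with an unadjusted p under 0.05, and DESeq2 and limma called 0 genes of any kind at an adjusted p under 0.05.

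**Figure D4:**
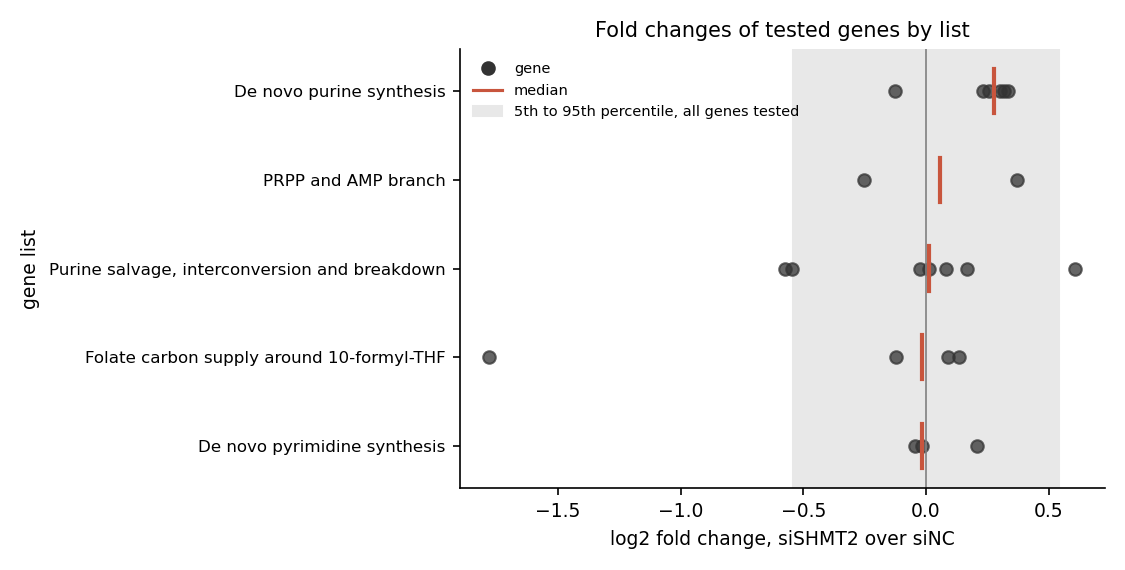
Log2 fold change (siSHMT2 over siNC) of each tested gene in 5 gene lists, with red lines for the median of a list and a grey band from the 5th to the 95th percentile of all 7207 genes tested, -0.54 to 0.54. The 6 tested purine synthesis genes lie inside the band with a median of 0.28, and SHMT2 is the point at -1.78.

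Some of the 10 genes have sequence copies or overlapping genes, and whether these change the values above was not tested. GENCODE lists 22 pseudogenes named after the 10 genes, of which 7 had counts, 866 in total against 1857 for the 10 genes. IMPDH1P10 (chromosome 2, 201137516 to 201140027, minus strand) had 516 counts against 63 for IMPDH1, and 91.2% of 1544 aligned bases were identical to the IMPDH1 transcript. Libraries of siNC replicates 1 to 3 held 105, 88 and 88 of its counts, against 49, 106 and 80 in siSHMT2 replicates 1 to 3, and the fitted log2 change was -0.15 (standard error 0.19). Of its exonic bases, 96.5% lie opposite exons of CFLAR, and CFLAR had 320 counts.

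PRPS1P2 (chromosome 9, 125150653 to 125151589, plus strand) had 317 counts against 38 for PRPS1, with 90.9% identity over 950 aligned bases. Libraries of siNC replicates 1 to 3 held 63, 49 and 59 of its counts, against 40, 61 and 45 in siSHMT2 replicates 1 to 3. Its log2 fold change was -0.09 (standard error 0.22) in the filtered fit. The value of PRPS1 came from the fit without the filter, and whether shared reads bear on it was not tested. PRPS1P2 lies within the span of PPP6C, on the other strand and without shared exonic bases, and PPP6C had 60 counts. PAICSP1 had 22 counts against 326 for PAICS, and the other 4 pseudogenes with counts, all of IMPDH1, had 1 to 4. How reads shared by a gene and its copies were counted is not given in the sources used here, so the levels of IMPDH1 and PRPS1 are uncertain.

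**Figure D5:**
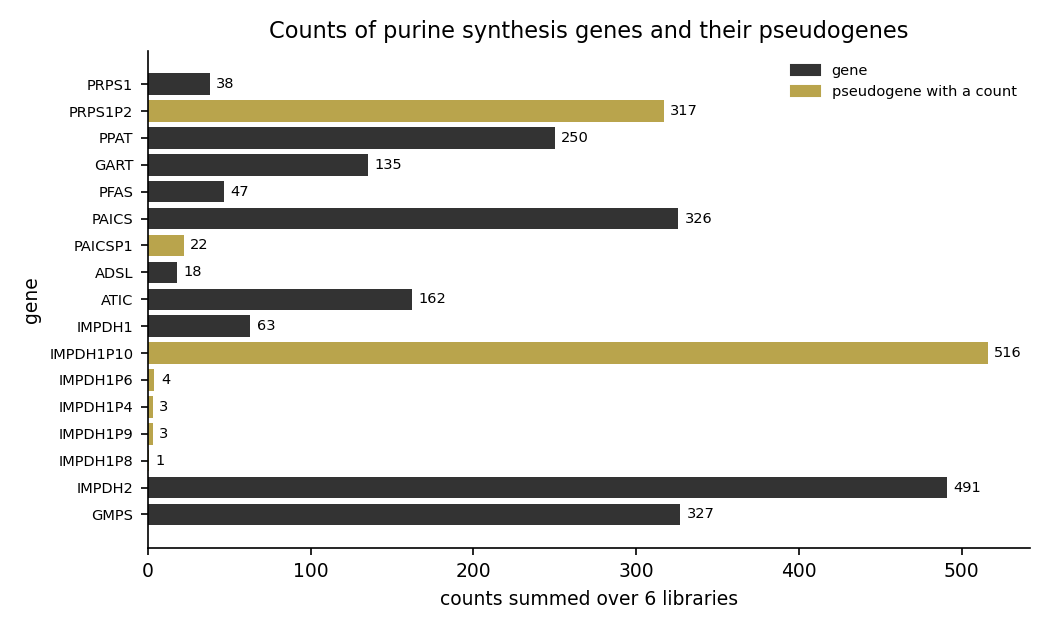
Counts summed over 6 libraries for the 10 genes (dark bars) and for the 7 pseudogenes with counts (yellow bars), each placed under its parent gene. IMPDH1P10 with 516 counts and PRPS1P2 with 317 counts exceed their parent genes, which had 63 and 38.

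Exons on the opposite strand covered 2.58% of the exonic bases of IMPDH2 and 2.22% of those of PPAT, from lncRNA genes with 1 and 4 counts, and none of those of the other 8 genes. On the same strand, a protein-coding gene that overlaps IMPDH2 over 32.8% of its exonic bases had 6 counts, and one that overlaps ADSL over 11.1% had 1 count. The IMPDH2 and IMPDH1 transcripts were 76.9% identical over 1549 aligned bases.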

How the data were processed

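Gene expression was measured by RNA-seq in 6 libraries of HT-1376 cells, 3 siNC and 3 siSHMT2. Per the submitters' processing notes and the study's methods, the authors checked reads with FastQC 0.11.9, trimmed them with fastp 0.23.4 and aligned them to GRCh38 with HISAT2 2.2.1. How reads were assigned to genes (program, strand, annotation) is not given in the sources used here. The deposited counts are whole numbers per gene without normalization. The deposited FPKM values divide each count by the listed length, which for the 10 genes is that of the longest GENCODE release 44 transcript, and by the library's total.

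Counts were compared with edgeR 4.0.16 in R 4.3.3 (TMM, filterByExpr, quasi-likelihood test, two-sided, no replicate block), with Benjamini-Hochberg adjustment over 7207 genes. Standard errors and 95% intervals come from the fitted negative binomial model scaled by the quasi-likelihood dispersion. Single FPKM values were compared by exact two-sided permutation tests. The genes and lists were chosen with earlier results of these data known. Named genes were the 10 genes, SHMT2, overlapping genes and pseudogenes with counts, and the genes with the largest and the smallest log2 fold change of each of the 4 other pathway lists. Marker genes were named from 2 further lists as a check of the cells.

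Alternatives were DESeq2 1.42.0, RLE size factors, library size only, no filter, a minimum of 10 counts per library, limma 3.58.1 (pseudocount 1 or 0.1 on FPKM), a replicate block, and each library left out. Canonical transcript lengths, and the choice to print values of the unfiltered fit for the 4 genes the filter left out, were added after seeing the data. Overlaps were taken with bedtools 2.31.1 and identities with blastn 2.17.0. Counts assigned to genes came to 533689 to 890574 per library. The paper reports far more sequenced reads per sample than these counts, and the reason was not tested. Totals of sequenced reads were not otherwise used here, and intervals of counts cover counting error only.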

Additional observations from a re-analysis of the deposited data

How the results depend on the processing

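Across 8 settings with all libraries and 6 that left out 1, no purine synthesis gene had an adjusted p under 0.05, and 91 of 96 recomputed fold changes kept their direction. With all libraries, the only setting that moved a count was no filter on low counts, where 2 genes were lower in siSHMT2 (GART and PFAS) instead of 1, since more genes were tested. Leaving out each library in turn gave 0 to 2 genes lower in siSHMT2 and 0 to 1 with an unadjusted p under 0.05, IMPDH2 without siNC replicate 2, where 354 of 7861 genes had one, and GMPS without siSHMT2 replicate 1, where 335 of 7734 did. The genes that pass the filter change with the libraries, and PFAS was the second gene in each fit with 2 lower. The log2 fold change then ranged from -0.37 to 0.14 for GART, from -0.20 to 0.46 for PFAS in the 4 fits in which it passed the filter, from -0.0789 to 0.48 for GMPS and from -2.58 to -1.31 for SHMT2. The difference in log2 ratio ranged from -0.0575 to 0.74 for IMPDH2 to IMPDH1 and from -0.27 to 0.34 for PAICS to PPAT. The cause was not tested. The siSHMT2 mean of the summed CPM was then 114.8% to 126.6% of the siNC mean.

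With the replicate block, the log2 fold change was 0.34 for IMPDH2 and -0.14 for GART, 0 purine synthesis genes had an unadjusted p under 0.05, and 304 genes of all tested did, against 277 without the block. Same-numbered libraries did not deviate together (correlations of -0.015, 0.048 and -0.012 for replicates 1 to 3), and the labels give no shared batch. Low counts limit PRPS1, PFAS, ADSL and IMPDH1, which had 18 to 63 counts over 6 libraries, and whether the strand setting of the counting lowered them was not tested. PRPS1, PFAS and IMPDH1 passed the filter in 4 of the 6 fits that left out a library, and ADSL in none.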
